A study of Mus musculus with 16 samples.

Results

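Messenger RNAs of 10 genes of the choroid plexus epithelium (Ttr, Enpp2, Kl, F5, Clic6, Kcne2, Folr1, Sostdc1, Kcnj13 and Slc4a5) were followed through frontal cortex (FC) and cerebellum (Cere) of mice with and without Upf3b. They are 10 of the 55266 genes in the transcript tables and were chosen by name, with earlier results of these data known. They are described through all 42 of their transcripts that were quantified. Each gene was higher in the mutant in both regions, by 2.07-fold to 568-fold in cerebellum and by 12.4-fold to 284-fold in frontal cortex. The 284-fold is that of Slc4a5, on 10 Ctrl counts, and its log2 value of 8.15 became 9.39 without FC_Ctrl replicate 4. In 6 genes the fold change differed between the regions, and in every gene the mean level in the mutant was lower in cerebellum than in frontal cortex, for Kcne2 within the spread between libraries.

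The choroid plexus is a fringe of tissue inside the brain ventricles. It consists of a sheet of epithelium over leaky capillaries, secretes cerebrospinal fluid, and supplies that fluid with proteins and vitamins. Neurons and glia of cortex and cerebellum are not known for these epithelial genes as a group, although single members, such as Enpp2 in oligodendrocytes, are also made elsewhere in the brain. Bulk tissue RNA cannot tell fewer cells of a type from less RNA per cell, and the same holds for more.

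The series compared 4 adult Upf3b-null mice (Upf3b-KO) with 4 littermate controls (Ctrl) in each of the regions, to find RNAs that depend on Upf3b, an adaptor protein of nonsense-mediated RNA decay (NMD). The groups are FC_Ctrl, FC_Upf3b-KO, Cere_Ctrl and Cere_Upf3b-KO, with 4 libraries in each, and no treatment was applied. The labels give neither sex nor age nor the allele, and they do not say whether same-numbered cortex and cerebellum libraries came from 1 mouse. As the study is described, both regions were taken from the same 4 mice of each genotype, while the tests between regions treat libraries as independent. Total RNA was depleted of ribosomal RNA before sequencing. The 15 deep libraries held 27660078 to 35238677 counts, while Cere_Upf3b-KO replicate 1 held 64981, at which 3 counts already equal 46.2 CPM (counts scaled to a library total of 1000000). That library is left out of the groups below, so Cere_Upf3b-KO has n = 3, and its values are given separately. Upf3b itself had 14.2 to 15.7 CPM in FC_Ctrl and 0.229 to 0.857 CPM in FC_Upf3b-KO. In cerebellum it had 20.9 to 23.6 CPM in Ctrl and 0.617 to 0.965 CPM in the 3 deep Upf3b-KO libraries.

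Libraries of 1 group were very alike. Between replicate pairs of deep libraries, gene counts differed with a chi-square of 2.74 to 3.89 per degree of freedom, where pure counting error gives about 1, and the biological coefficient of variation that edgeR estimated was 0.0399 in frontal cortex and 0.0387 in cerebellum. For the 10 genes the standard deviation over libraries was 1.24 times that of counting error in the median. The p-values below measure only this spread between libraries, which may be technical.

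The genes lie on 8 chromosomes of the mouse genome build GRCm39. Enpp2 is on chromosome 15 (54701324 to 54816288), Kl on chromosome 5 (150876072 to 150917282) and Sostdc1 on chromosome 12 (36364137 to 36368451). F5 (163979289 to 164047846) and Kcnj13 (87309135 to 87322456) are both on chromosome 1. Clic6 (92282624 to 92338739) and Kcne2 (92089219 to 92095027) are both on chromosome 16. Folr1 is on chromosome 7 (101507537 to 101520014) and Slc4a5 on chromosome 6 (83196810 to 83281927).

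In several of the genes counts fell on more than 1 annotated transcript start, in shares that differed between groups. For Kcne2, Slc4a5 and Folr1 the 100 bases before the main starts are shown here so that the starts can be told apart. They were read from GRCm39 5′ to 3′ on the gene's strand, and capitals mark a CCAAT box on either strand or a TATA box with the letters TATAAA. Kcnj13 is added because its 100 bases hold 3 such matches, more than those of any other quantified start of the 10 genes.
Kcne2 start to which Upf3b-KO counts were assigned, chr16:92089119-92089218, plus strand: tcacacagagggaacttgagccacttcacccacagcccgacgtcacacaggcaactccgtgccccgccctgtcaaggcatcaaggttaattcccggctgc
Kcne2 start to which the 33 Ctrl counts were assigned, chr16:92092404-92092503, plus strand: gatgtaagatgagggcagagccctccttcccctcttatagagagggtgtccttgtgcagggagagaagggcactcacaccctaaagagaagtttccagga
Slc4a5 start used in both regions, chr6:83214257-83214356, plus strand: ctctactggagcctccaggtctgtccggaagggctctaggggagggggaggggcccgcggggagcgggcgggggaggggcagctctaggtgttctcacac
Slc4a5 start with counts in cerebellum alone, chr6:83196710-83196809, plus strand: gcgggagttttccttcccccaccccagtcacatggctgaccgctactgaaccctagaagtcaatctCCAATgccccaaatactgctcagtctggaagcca
Folr1 upstream start, chr7:101520015-101520114, minus strand: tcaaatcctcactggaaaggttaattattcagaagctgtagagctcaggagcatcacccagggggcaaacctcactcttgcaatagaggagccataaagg
Folr1 downstream start, chr7:101516628-101516727, minus strand: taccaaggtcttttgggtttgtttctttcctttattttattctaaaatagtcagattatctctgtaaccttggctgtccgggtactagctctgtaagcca
Kcnj13 start, chr1:87322457-87322556, minus strand: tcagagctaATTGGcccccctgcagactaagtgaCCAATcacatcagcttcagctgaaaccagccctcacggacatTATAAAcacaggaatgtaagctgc

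The most abundant members in Upf3b-KO, Ttr and Enpp2, encode secreted proteins. Ttr, on chromosome 18 (20798296 to 20807467), encodes transthyretin, which carries thyroxine and retinol-binding protein in the cerebrospinal fluid. Its CPM was 8.376, 7.457, 7.9997 and 7.914 in FC_Ctrl and 1834, 1841, 1887 and 1829 in FC_Upf3b-KO. In cerebellum the 4 Ctrl libraries held 1.97, 2.06, 2.31 and 1.88 CPM and the 3 deep Upf3b-KO libraries 1215, 1215 and 1198 CPM. The genotypes were thus separated by more than 2 orders of magnitude in both regions. The log2 fold change was 7.79 (SE 0.022, adjusted p = 5.98e-36) in frontal cortex and 9.15 (SE 0.029, adjusted p = 1.11e-30) in cerebellum (edgeR, quasi-likelihood, p adjusted after Benjamini and Hochberg), the smallest p among all genes tested in each region. These fits scale libraries by trimmed means, so the fitted 221-fold in frontal cortex is slightly below the 233-fold ratio of the pooled CPM.

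Enpp2 encodes autotaxin, the secreted enzyme that makes lysophosphatidic acid. It was by far the highest member in Ctrl, with 224.6 to 226.9 CPM in FC_Ctrl and 178 to 180 CPM in Cere_Ctrl. In Upf3b-KO it reached 2941 to 2989 CPM in frontal cortex and 1998 to 2027 CPM in cerebellum. This was a log2 fold change of 3.63 (SE 0.011) and 3.44 (SE 0.013), with the second smallest p of all genes in each region. Ttr and Enpp2 together made up 91.5% of the summed CPM of the 10 genes in FC_Upf3b-KO and 92.6% in Cere_Upf3b-KO.

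Kl encodes klotho, a co-receptor for the hormone FGF23 that is also shed into the fluid. It held 8.44, 8.12, 7.10 and 7.20 CPM in FC_Ctrl against 165.0, 166.3, 160.5 and 171.5 CPM in FC_Upf3b-KO. In cerebellum it held 0.955, 1.18, 1.09 and 1.08 CPM in Ctrl against 79.5, 75.4 and 76.2 CPM in Upf3b-KO. Both groups of the mutant lay far above their controls, but at unequal levels: the cerebellar mean of 77.0 ± 2.2 CPM (SD, n = 3) was less than that of 166 ± 4.5 CPM in frontal cortex (SD, n = 4), while the log2 fold change was larger in cerebellum (6.11, SE 0.068) than in frontal cortex (4.35, SE 0.042).

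F5, coagulation factor V, behaved alike. In frontal cortex it rose from 1.13 ± 0.15 to 61.0 ± 2.0 CPM (SD, n = 4 each). In cerebellum it rose from 0.303 ± 0.054 (n = 4) to 26.0 ± 1.3 CPM (n = 3), where the Ctrl level rests on 8 to 11 counts a library. Sostdc1 encodes a secreted antagonist of BMP and Wnt signalling. It had 1.86, 2.52, 2.09 and 1.92 CPM in FC_Ctrl and 35.1, 33.1, 33.1 and 36.2 CPM in FC_Upf3b-KO. In Cere_Ctrl it was almost absent, with 11 counts over 4 libraries (0.0289 to 0.181 CPM), whereas the 3 Cere_Upf3b-KO libraries had 25.2, 24.9 and 26.9 CPM. The pooled ratio was 16.4 in frontal cortex (exact 95% counting interval 14.5 to 18.6) and 296 in cerebellum (165 to 593).

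Channels, carriers and receptors of the epithelium followed. Kcne2, an accessory subunit of potassium channels, had 19 counts over the 4 FC_Ctrl libraries, 1 of which was at 0, and 14 counts over the 4 Cere_Ctrl libraries. In Upf3b-KO it held 22.9, 24.3, 26.6 and 26.7 CPM in frontal cortex and 24.4, 23.4 and 22.7 CPM in cerebellum. Folr1, the folate receptor that carries folate into the fluid, held 0.406 to 0.745 CPM in FC_Ctrl and 0 to 0.325 CPM in Cere_Ctrl. It held 25.9 to 28.0 CPM in FC_Upf3b-KO and 13.4, 14.5 and 16.6 CPM in Cere_Upf3b-KO. For both genes the size of the change is limited by the few Ctrl counts. In cerebellum the exact 95% counting interval of the ratio ran from 126 to 388 for Kcne2 and from 89.6 to 305 for Folr1. Single libraries also weigh on the size of the change. The log2 fold change of Folr1 in cerebellum was 7.18, and 8.71 without Cere_Ctrl replicate 4. That of Kcne2 in frontal cortex was 7.35, and 8.13 without FC_Ctrl replicate 3.

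Kcnj13, an inwardly rectifying potassium channel, had overlapping levels in the control groups, with 2.72 to 3.88 CPM in FC_Ctrl and 3.13 to 3.82 CPM in Cere_Ctrl. It reached 45.3 to 48.4 CPM in FC_Upf3b-KO and 27.1 to 28.6 CPM in Cere_Upf3b-KO. Of its main transcript, 669 exonic bases overlap Gigyf2 on the opposite strand, and 11.6% of its 31-base words also occur in other genes. The library kit does not record strand as far as the sources used here state, so reads of the pair in that stretch cannot be told apart, which bears most on the low Ctrl values.

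Clic6 and Slc4a5 differed from the other 8 in their control levels. Clic6, of the chloride intracellular channel family, had 0.901, 1.33, 1.68 and 1.12 CPM in FC_Ctrl but 20.37, 21.99, 20.50 and 18.62 CPM in Cere_Ctrl. In Upf3b-KO it had 66.6, 64.9, 65.6 and 63.6 CPM in frontal cortex and 44.7, 43.4 and 43.0 CPM in cerebellum. Slc4a5, a sodium bicarbonate cotransporter of the apical membrane, had 10 counts over the 4 FC_Ctrl libraries (0 to 0.217 CPM) and 0.926 to 1.49 CPM in Cere_Ctrl. It reached 23.0 to 24.3 CPM in FC_Upf3b-KO and 16.5 to 18.2 CPM in Cere_Upf3b-KO. The fold changes were smaller in cerebellum: the log2 value was 1.05 (SE 0.051) for Clic6 and 3.85 (SE 0.13) for Slc4a5 in cerebellum. The same genes had values of 5.61 (SE 0.081) and 8.15 (SE 0.20) in frontal cortex.

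**Figure D1:**
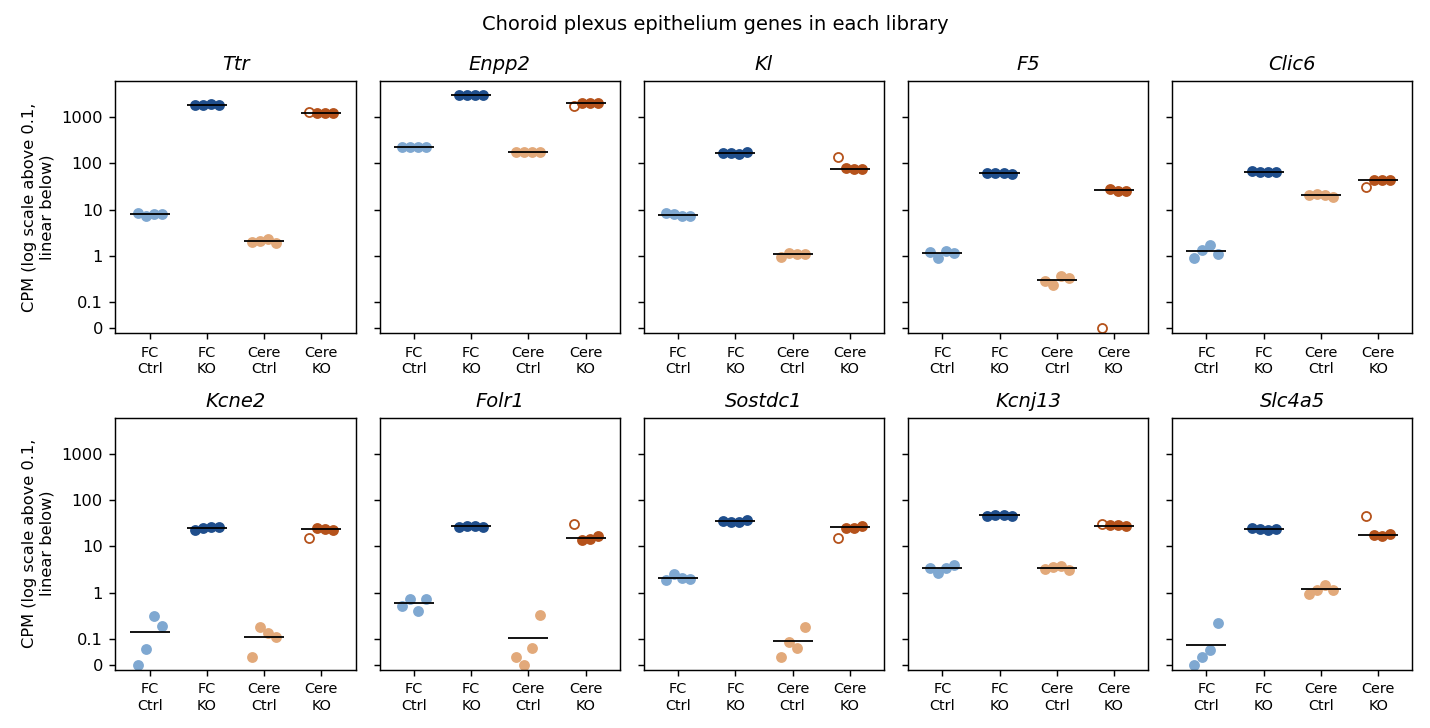
CPM of the 10 genes in each library (y axis, log scale above 0.1 and linear below) for frontal cortex (FC) and cerebellum (Cere) of Ctrl and Upf3b-KO (KO) mice. Filled points are the 15 deep libraries, open points the shallow library Cere_Upf3b-KO replicate 1, and lines are means over deep libraries. In each gene the filled KO points lie above all Ctrl points of the same region. The share of all genes that separate in this way is not given here, and libraries of 1 group were very alike.

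Counted together, all 10 genes passed the study's gene thresholds (adjusted p under 0.01 and over 2-fold) as higher in Upf3b-KO in frontal cortex, where 9.16% of the 18218 genes tested were called higher. All 10 passed in cerebellum too, where 10.3% of 17785 genes tested were called higher. The median log2 fold change of the 10 was 5.52 in frontal cortex, where that of all genes tested was 0.0037. In cerebellum these medians were 6.24 and 0.0077. The largest adjusted p of the 10 was 1.53e-17 (Kcne2) in frontal cortex and 1.38e-12 (Clic6) in cerebellum by edgeR's quasi-likelihood test. Summed, the 10 genes took 0.0250% ± 0.00013 of all counts in FC_Ctrl and 0.526% ± 0.0025 in FC_Upf3b-KO (SD, n = 4 each). In cerebellum they took 0.0208% ± 0.000088 in Ctrl (n = 4) and 0.348% ± 0.00070 in Upf3b-KO (n = 3).

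The shallow Upf3b-KO cerebellum library gave 218 counts of the 10 genes, or 0.335% of its total (exact 95% binomial interval 0.292 to 0.383). Its Ttr was 1277 CPM (83 counts), its Enpp2 1770 CPM (115 counts) and its Kl 139 CPM (9 counts). For each of the 10 genes the mean of the 3 deep libraries lay within the exact counting interval of this library, which is wide for the 7 genes with 0 to 3 counts.

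Whether the fold change differed between the regions was tested by the region by genotype interaction over 15 libraries. It was called for 6 of the 10 genes, where 9.4% of 19831 genes were called in either direction. The change was larger in cerebellum for Sostdc1 (interaction log2 value 4.13, SE 0.27, adjusted p = 1.90e-12), Kl (1.75, SE 0.11), Folr1 (1.75, SE 0.49, adjusted p = 0.00442) and Ttr (1.35, SE 0.066) by edgeR's quasi-likelihood test. It was smaller in cerebellum for Clic6 (−4.57, SE 0.11, adjusted p = 1.19e-21) and Slc4a5 (−4.32, SE 0.37, adjusted p = 2.16e-10). The Folr1 call rests on 12 Ctrl counts in cerebellum, and it was lost, with the value between 1.31 and 1.64 and adjusted p between 0.0117 and 0.0246 by edgeR, when FC_Ctrl replicate 2 or 4 or Cere_Ctrl replicate 1, 2 or 3 was left out. Without Cere_Ctrl replicate 4, which holds 9 of those 12 counts, it was 3.28. The Slc4a5 value was −5.55 without FC_Ctrl replicate 4, which holds 7 of its 10 Ctrl counts there, and −3.92 without FC_Ctrl replicate 1. Kcne2 had an interaction value of 0.27 (SE 0.59, adjusted p = 0.744), and of −0.51 without FC_Ctrl replicate 3. Enpp2 (−0.20, SE 0.016), Kcnj13 (−0.78, SE 0.12) and F5 (0.69, SE 0.21, adjusted p = 0.0139) stayed under 2-fold, and all 3 had an adjusted p under 0.05.

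**Figure D2:**
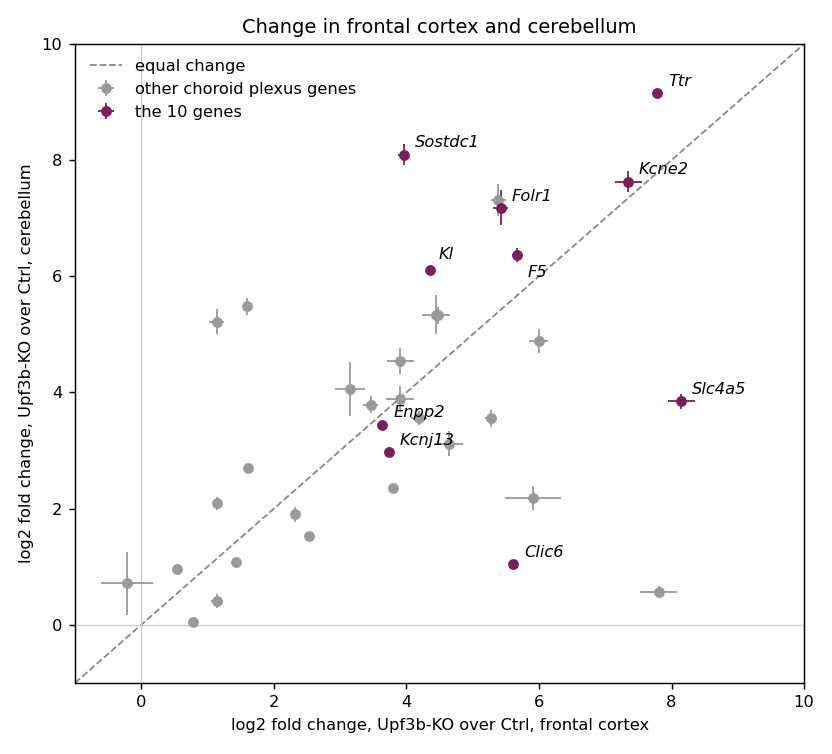
Log2 fold change of Upf3b-KO over Ctrl in frontal cortex (x axis) and cerebellum (y axis), with standard errors as bars, for the 10 genes (purple, named) and 25 other choroid plexus genes (grey); the dashed line marks equal change. Sostdc1, Kl, Folr1 and Ttr lie above the line at interaction values of 1.35 to 4.13, and Clic6 and Slc4a5 below it at −4.57 and −4.32.

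Levels compared directly gave another order. Among Ctrl libraries, 5 genes were lower in cerebellum than in frontal cortex, and 16.8% of all genes tested were called so: Sostdc1 (log2 value, cerebellum minus frontal cortex, −4.56), Kl (−2.87), Folr1 (−2.62), Ttr (−1.98) and F5 (−1.93). Folr1 was at −4.16 without Cere_Ctrl replicate 4. Clic6 (3.98) and Slc4a5 (3.86, and 5.10 without FC_Ctrl replicate 4) were called higher in Ctrl cerebellum, where 8.74% of all genes were. Enpp2 (−0.37), Kcne2 (−0.38, adjusted p = 0.572; 0.40 without FC_Ctrl replicate 3) and Kcnj13 (0.02, adjusted p = 0.860) were not called by edgeR's quasi-likelihood test. The ratio of mean Ctrl CPM, cerebellum over frontal cortex, therefore ran from 0.0434 for Sostdc1 to 16.2 for Clic6.

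In the Upf3b-KO libraries the regions were closer together. The same ratio ran only from 0.426 for F5 to 0.935 for Kcne2, and all 10 genes were lower in cerebellum. F5 (−1.24, SE 0.053) and Kl (−1.12, SE 0.034) were called lower over 2-fold, where 15% of all genes were. Setting the fold aside, 9 of the 10 were lower at an adjusted p under 0.05, where 34.4% of all genes were, and Kcne2 was the exception (−0.11, SE 0.11, adjusted p = 0.400 by edgeR's quasi-likelihood test). Ttr and Enpp2, with the smallest errors, were at −0.62 (SE 0.015) and −0.57 (SE 0.011).

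The added level, Upf3b-KO minus Ctrl in CPM, is a measure that does not depend on a small denominator. It was 1840 ± 13 CPM (SE) for Ttr in frontal cortex and 1207 ± 5.7 CPM in cerebellum, a ratio of 0.656 ± 0.0057. For Enpp2 it was 2733 ± 11 and 1836 ± 8.9 CPM, a ratio of 0.672 ± 0.0042. Kcne2 had the highest ratio, 0.936 ± 0.040, and Clic6 the lowest, 0.365 ± 0.014, with a median over the 10 of 0.610. These ratios are descriptions with no test of their own. For Sostdc1, whose fold change was 17.5 times larger in cerebellum, the added level was 32.3 ± 0.78 CPM in frontal cortex and 25.6 ± 0.62 CPM in cerebellum. For Slc4a5, whose fold change was 19.9 times smaller in cerebellum by a value that rests on 10 Ctrl counts in frontal cortex, it was 23.6 ± 0.33 and 16.2 ± 0.48 CPM. The order of the regions by fold change and by added level was thus opposite for Ttr, Kl, F5, Kcne2, Folr1 and Sostdc1, although the fold changes of F5 and Kcne2 were not called different.

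The added levels can also be set against that of Ttr. For each 1000 CPM of added Ttr, Enpp2 added 1486 CPM in frontal cortex and 1521 CPM in cerebellum. The corresponding values were 12.8 and 13.4 CPM for Slc4a5, 14.4 and 12.2 CPM for Folr1, and 23.6 and 20.3 CPM for Kcnj13. Clic6 (34.7 and 19.3 CPM), F5 (32.6 and 21.3 CPM) and Kl (85.9 and 62.9 CPM) added less per Ttr in cerebellum. Kcne2 (13.6 and 19.4 CPM) and Sostdc1 (17.5 and 21.2 CPM) added more.

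**Figure D3:**
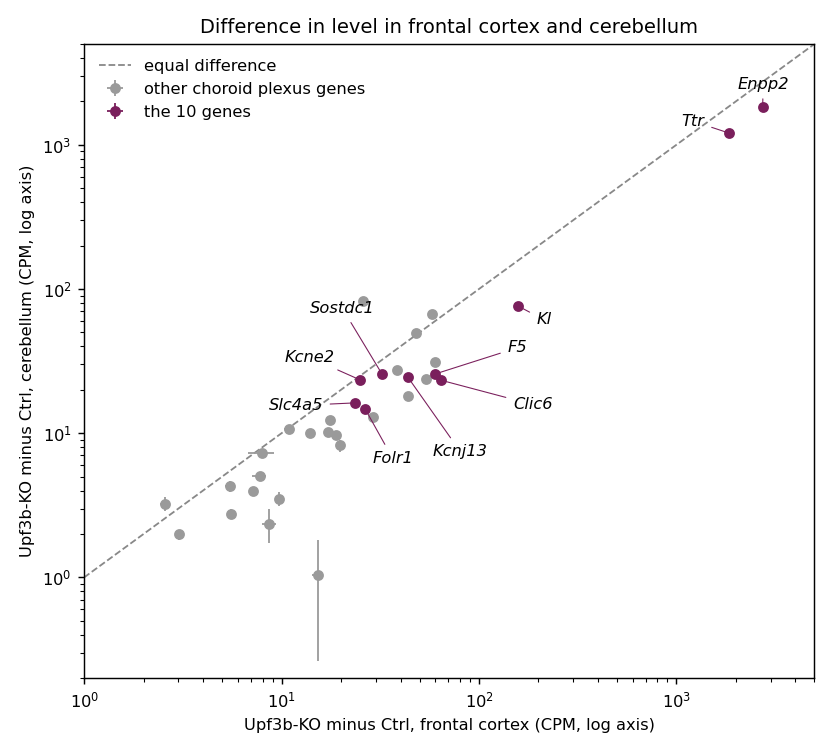
Upf3b-KO minus Ctrl mean CPM in frontal cortex (x axis) and cerebellum (y axis), both on log axes, with standard errors as bars, for the 10 genes (purple, named) and 24 of 25 other choroid plexus genes (grey; Wfikkn2, with a negative difference in frontal cortex, cannot be drawn). The 10 genes lie below the dashed line of equal difference, at ratios of 0.365 to 0.936.

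Per kilobase of annotated transcript, which allows genes to be compared with each other, the order in FC_Upf3b-KO was Ttr (1404 ± 20 CPM per kb, SD, n = 4), Enpp2 (651 ± 4.5), Kl (32.4 ± 0.88), Sostdc1 (19.3 ± 0.86), Folr1 (16.4 ± 1.5), Clic6 (14.9 ± 0.29), Kcne2 (14.3 ± 1.1), F5 (8.09 ± 0.27), Kcnj13 (7.52 ± 0.25) and Slc4a5 (4.88 ± 0.34). Folr1, Clic6 and Kcne2 are not separated beyond their spread. In Cere_Upf3b-KO, Ttr (919 ± 7.6 CPM per kb) and Enpp2 (455 ± 4.1) again led, and Kl (15.05 ± 0.42) and Sostdc1 (14.4 ± 0.60) were close together, as were Slc4a5 (3.62 ± 0.29) and F5 (3.45 ± 0.17). In Ctrl the order was another: Enpp2 led in both regions (55.5 ± 0.93 CPM per kb in frontal cortex and 45.4 ± 0.85 in cerebellum), and Ttr stood at 6.03 ± 0.29 and 1.56 ± 0.14.

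Transcripts were then taken singly, since the series was made to find RNAs that NMD degrades. A stop codon more than 50 nucleotides before the last exon junction is the feature most used to mark such RNAs. It was in none of the quantified transcripts of the 10 genes that have a defined coding end. Another 26 annotated transcripts, 6 of Ttr and 20 of Enpp2, carry it and were not quantified. The study also scored long 3′ untranslated regions. Their annotated length was 5003 nucleotides in the main transcript of Kcnj13, 2255 in Clic6, 1963 in Kl and 1652 in Slc4a5, and less in those of the other members. Extension of this region relative to the main transcript, another feature of the study, was not scored here. Of the 42, 38 had counts in the deep libraries. In frontal cortex 17 of 20 tested transcripts were called higher (2.76% of 42318 transcripts tested were), and in cerebellum 15 of 19 (3.45% of 44388). DESeq2 called 20 higher in frontal cortex, and 18 higher and 1 lower in cerebellum. With the shallow library included, edgeR called 11 in cerebellum, and with the replicate number as a block it called 11 in each region. By edgeR every gene had at least 1 transcript called in each region.

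Kcne2 counts were assigned to another transcript in Ctrl than in Upf3b-KO. All 3187 counts in FC_Upf3b-KO and all 2297 in Cere_Upf3b-KO were assigned to ENSMUST00000047383, which starts at 92089219. All 19 and 14 counts in Ctrl were assigned to ENSMUST00000113971, whose first exon starts at 92092504. By this assignment the level of ENSMUST00000047383 in Upf3b-KO was at least 1113-fold higher in frontal cortex and at least 989-fold higher in cerebellum, taking 3 counts over the 4 Ctrl libraries as the floor. The transcripts share their last exon, so the assignment of the few Ctrl counts by RSEM, the quantification program, is uncertain, and so are these bounds. The ratio for the gene as a whole, which does not rest on it, was 176 in frontal cortex (exact 95% counting interval 112 to 292). In cerebellum it was 212 (126 to 388).

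Slc4a5 counts were nearly all on 1 start in frontal cortex and mostly on a pair of starts in cerebellum. In FC_Upf3b-KO 99.5% of its counts were on transcripts that start at 83214357, chiefly ENSMUST00000039212 (21.4 CPM). In cerebellum the upstream start at 83196810 (ENSMUST00000113900) took 29.7% of counts in Ctrl (21.4% to 43.3% by library) and 8.47% in Upf3b-KO (6.09% to 12.2%), and the libraries of the genotypes did not overlap. Its level was 0.344 ± 0.14 CPM in Cere_Ctrl and 1.45 ± 0.66 CPM in Cere_Upf3b-KO, a log2 value of 2.08 (SE 0.47) that missed the threshold (adjusted p = 0.0183 by edgeR's quasi-likelihood test). It had no count in the 8 frontal cortex libraries. ENSMUST00000113899, from the main start, took 9 of the 10 FC_Ctrl counts and 265 counts in FC_Upf3b-KO (adjusted p = 0.0219 by edgeR, not called), and 0 and 158 counts in cerebellum. ENSMUST00000131432 and ENSMUST00000141863 held at most 2.48 counts in any group.

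Folr1 counts were spread over many transcripts that share their coding exons. The start at 101520014 (ENSMUST00000106983, ENSMUST00000106985 and ENSMUST00000106986) took 39.4% of counts in FC_Upf3b-KO (26.1% to 49.7%) and 28.9% in Cere_Upf3b-KO (15.5% to 37.7%). In Ctrl it took 5.32 of 79 counts in frontal cortex and 0 of 12 in cerebellum. ENSMUST00000106983 alone was at least 266.4-fold higher in FC_Upf3b-KO and at least 94.0-fold higher in Cere_Upf3b-KO. Of the shorter Folr1 transcripts, ENSMUST00000134145 (4.77 to 220 counts) and ENSMUST00000155311 (0 to 53.2 counts) were called higher in frontal cortex, and ENSMUST00000123321, ENSMUST00000126204, ENSMUST00000140068 and ENSMUST00000140584 held at most 46.4 counts in any group. The start at 101516627 (ENSMUST00000106981 and ENSMUST00000106982) held most Ctrl counts, 60.3 of 79 in frontal cortex and 8 of 12 in cerebellum. In Upf3b-KO it held 50.3% and 61.2%.

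Enpp2 changed its transcript make-up with deep counts in every group. The main transcript ENSMUST00000041591 held 76.9% ± 1.9 of the gene in FC_Ctrl and 87.4% ± 0.18 in FC_Upf3b-KO (SD, n = 4 each), and 70.4% ± 2.8 in Cere_Ctrl and 84.5% ± 0.057 in Cere_Upf3b-KO (n = 3). ENSMUST00000167541, which starts further in at 54783357, held 18.7% ± 1.8 and 5.08% ± 0.22 in frontal cortex and 24.3% ± 2.6 and 8.50% ± 0.17 in cerebellum. In CPM it still rose, with means of 42.3 ± 4.0 and 150 ± 6.4 in frontal cortex. In cerebellum its means were 43.5 ± 4.6 and 171 ± 3.6, and among the transcripts of the gene over 1 CPM it was the 1 with a higher mutant level in cerebellum than in frontal cortex. ENSMUST00000173516, which has 1 more exon than the main transcript, had the largest log2 values (4.89 and 4.27), with 5.89 and 183 CPM in frontal cortex and 5.84 and 114 CPM in cerebellum. The retained-intron transcript ENSMUST00000227483 rose from 3.63 to 38.5 and from 3.37 to 27.05 CPM.

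The remaining genes were nearly single transcripts. Ttr, F5 and Sostdc1 have 1 quantified transcript each, and ENSMUST00000078856 of Kl and ENSMUST00000113212 of Kcnj13 held at least 93.8% of their gene in every group. The other transcripts of these genes, ENSMUST00000202096 and ENSMUST00000174179, had 8.48 and 4.86 counts in Cere_Ctrl. In FC_Upf3b-KO they had 55.1 and 0 counts, and in Cere_Upf3b-KO 20.4 and 0. Clic6 was on ENSMUST00000023670 in frontal cortex, and in Cere_Ctrl a further 2.55% was on ENSMUST00000162181, which starts upstream at 92282624 and had 66.3 counts there, 5.67 in Cere_Upf3b-KO and 0 in frontal cortex.

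**Figure D4:**
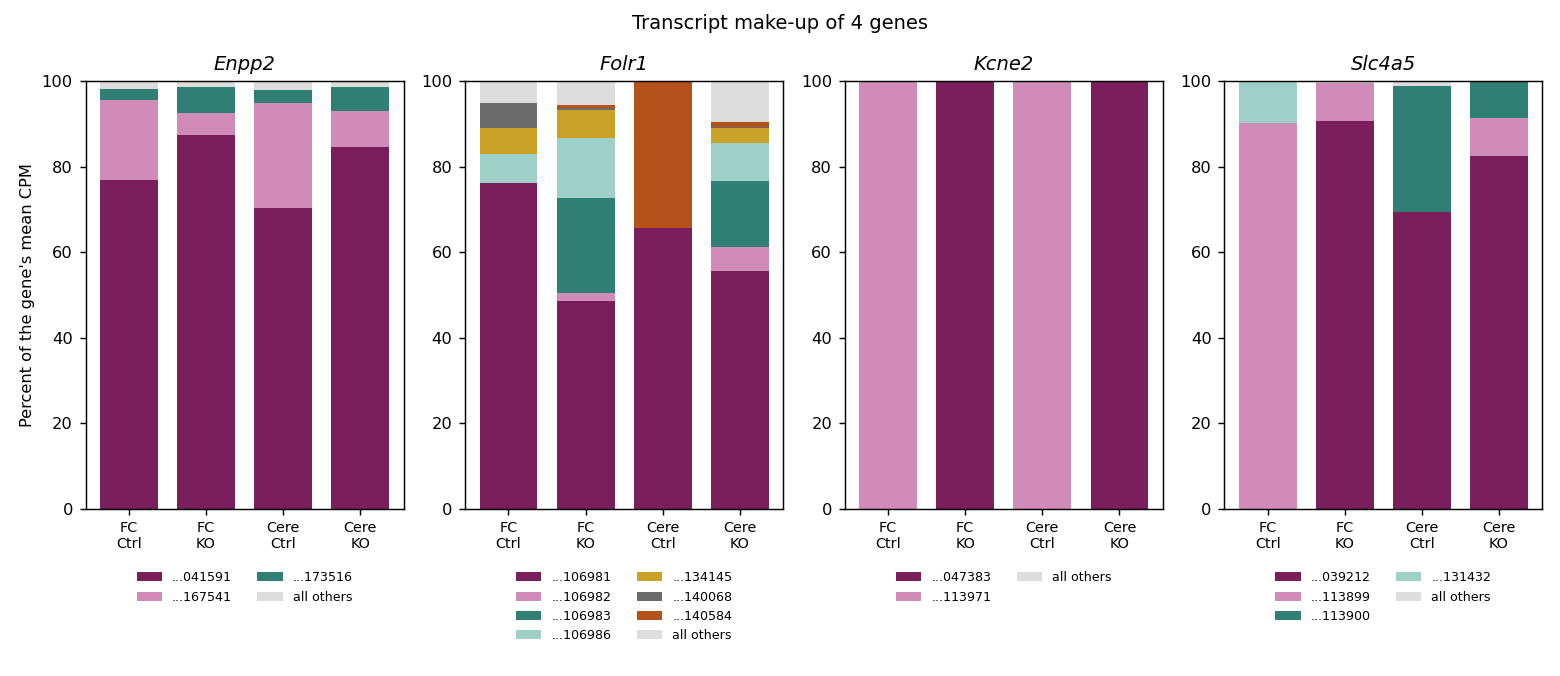
Share of each gene's mean CPM (y axis, percent) held by its transcripts in the 4 groups, for Enpp2, Folr1, Kcne2 and Slc4a5; transcripts are named by the last 6 digits of their Ensembl identifier, and those under 5% in every group are pooled as all others. Kcne2 is wholly on one transcript in Ctrl and wholly on the other in Upf3b-KO, on 33 Ctrl counts in all; the Ctrl bars of Folr1 and of frontal cortex Slc4a5 rest on 10 to 79 counts.

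Sequence features of the promoters, from 250 bases before to 50 bases after each main start, were mixed. A CCAAT box was in 6 of 10 promoters and in 38% of 19830 promoters of all tested genes. The core TAATCC of OTX2-type homeodomain proteins was in 1 of 10 (Folr1) and in 7.24% of all. TATAAA was in 2 of 10 (Kcnj13 and Slc4a5) and in 10% of all, and the E-box CACGTG was in 0 of 10 and in 8.44% of all. Both strands were searched, and none of these motifs contains another. The median GC content was 49.6% for the 10 and 56% for all. A match describes letters only.

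Most of 25 other choroid plexus genes moved with the 10. Their list was chosen with the same cell type in mind and with earlier results of these data known, so it is no independent test. In frontal cortex 22 of the 25 were called higher and in cerebellum 20 (16 with the shallow library included), where 9.16% and 10.3% of all genes tested were, and the median log2 fold changes were 3.46 and 3.12. In frontal cortex the transcription factor Otx2 rose from 0.0384 to 9.75 CPM, but it stood at 6.56 CPM in Cere_Ctrl and 10.1 CPM in Cere_Upf3b-KO, under 2-fold. Another transcription factor, Lmx1a, rose from 0.0380 to 2.61 CPM and from 0.860 to 4.10 CPM. Cldn2, a tight junction protein of the epithelium, rose from 0.730 to 29.9 CPM and from 1.16 to 14.1 CPM. The water channel Aqp1 rose from 0.436 to 19.4 CPM and from 0.0548 to 9.70 CPM. Prlr, the prolactin receptor, rose from 1.95 to 45.5 CPM and from 0.438 to 18.6 CPM. Wfikkn2 was not called, at 0.622 and 0.568 CPM in frontal cortex and 0.240 and 0.401 CPM in cerebellum. The added level was larger in cerebellum for Lmx1a, Igfbp2, Slc4a2, Slc12a2 and Wfikkn2 and smaller for the other 20, with a median ratio of 0.594.

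Genes of fluid and ion transport form a wider list, which shares Aqp1, Slc4a2, Car12 and Slc12a2 with the choroid plexus genes just described. Of its 14 genes, 3 were called higher in frontal cortex and 4 in cerebellum, and none lower, with median log2 fold changes of 0.31 and 0.22. The anion exchanger Slc4a2 rose from 25.8 to 73.6 CPM in cortex and from 41.3 to 90.5 CPM in cerebellum. Car12, a carbonic anhydrase, rose from 27.3 to 87.0 CPM and from 0.689 to 32.0 CPM. Kcnq1, a channel partner of Kcne2, was at 0.819 and 0.824 CPM in frontal cortex and at 0.706 and 1.17 CPM in cerebellum, and was not called.

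Partner genes of the secreted members and carriers were counted at the same thresholds, by which 9.16% of all genes tested were called higher in frontal cortex and 10.3% in cerebellum. Of 10 carriers and transporters of thyroid hormone and retinoids beside Ttr, all 10 were tested in frontal cortex and 8 in cerebellum. Lrp2 was called higher in frontal cortex (0.540 to 1.25 CPM), the deiodinase Dio3 lower there (3.53 to 0.875 CPM), and the transporter Slco1c1 higher in cerebellum (26.4 to 56.2 CPM). Of the receptors and phosphatases that act on lysophosphatidic acid, none of 7 tested was called in frontal cortex and 3 of 6 in cerebellum, the phosphatases Plpp1 (11.7 to 30.96 CPM) and Plpp2 (2.77 to 9.43 CPM) and the receptor Lpar4 (1.34 to 2.95 CPM). At an adjusted p under 0.05 alone, 4 were higher and 2 lower in frontal cortex, and 5 higher and 1 lower in cerebellum. Plpp3, the one with the highest CPM, was lower in both, at 512 and 381 CPM and at 345 and 256 CPM. By edgeR none of 3 tested partners of klotho (Fgfr1, Fgfr2 and Fgfr3) was called in either region, but at an adjusted p under 0.05 without the fold limit Fgfr2 was higher in both, Fgfr3 higher in cerebellum and Fgfr1 lower in frontal cortex. By edgeR none of the folate genes, 6 tested in frontal cortex and 7 in cerebellum, was called. At an adjusted p under 0.05 alone, 4 were higher in frontal cortex, and 1 was higher and 2 were lower in cerebellum. Of genes of BMP and Wnt signalling beside Sostdc1, the receptor Lrp4 was called higher in both regions (9.33 to 34.2 CPM, and 3.07 to 18.5 CPM) and Bmp2 in cerebellum (1.88 to 3.91 CPM).

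Markers of other cell types moved with genotype as well, and differently in the regions. Ependymal cells, which line the ventricles beside the choroid plexus, carry motile cilia. Of 11 of their genes, 10 were called higher in frontal cortex, where 9.16% of all genes tested were. In cerebellum 6 of the 11 were called higher, where 10.3% of all genes tested were. With the fold limit set aside, 8 were higher there at an adjusted p under 0.05 and 1, Hydin, was lower (3.17 to 1.98 CPM). The 11 genes summed to 23.1–26.2 CPM (Ctrl) and 63.2–68.04 CPM (Upf3b-KO) in frontal cortex. Their cerebellar sums were 23.5–25.8 and 39.8–41.05 CPM. Meningeal fibroblast genes summed to 175–183 and 98.3–109 CPM in frontal cortex and to 129–134 and 89.5–95.03 CPM in cerebellum. Of the 10, 1 was called lower in each region, Dcn in frontal cortex (72.7 to 25.6 CPM) and Ogn in cerebellum. At an adjusted p under 0.05 alone, 9 were lower in frontal cortex and 8 in cerebellum, and 0 were higher. Endothelial genes summed to 265–274 and 316–322 CPM in frontal cortex and to 237–244 and 288–301 CPM in cerebellum, with none of 8 called. At an adjusted p under 0.05 alone, 5 were higher and 1 lower in frontal cortex, and 4 higher and 1 lower in cerebellum. Haemoglobin and red cell genes summed to 489–504 and 422–433 CPM in frontal cortex and to 1255–1325 and 2402–2451 CPM in cerebellum, with none of 5 called. At an adjusted p under 0.05 alone, all 5 were lower in frontal cortex and all 5 higher in cerebellum. The shares of all genes called lower, or under this looser limit, are not given here.

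Neuronal and glial markers also differed between genotypes. All 9 striatal neuron genes were called higher in FC_Upf3b-KO, where 9.16% of all genes tested were. Their summed level was 203–219 CPM in FC_Ctrl and 954–968 CPM in FC_Upf3b-KO. In cerebellum 3 of the 9 were called higher, where 10.3% of all genes tested were. At an adjusted p under 0.05 alone, 6 were higher there and 1 lower, Ppp1r1b (243 to 127 CPM). The summed level in cerebellum was 415–425 CPM in Ctrl and 399–408 CPM in Upf3b-KO. Oligodendrocyte genes, a cell type that also makes Enpp2, summed to 7742–7824 and 10473–10545 CPM in frontal cortex with none of 9 called. In cerebellum they summed to 6357–6469 and 14725–14828 CPM with 6 of 9 called higher, where 10.3% of all genes tested were. At an adjusted p under 0.05 alone, 8 were higher in frontal cortex and 9 in cerebellum. The region labels were checked with markers picked after their values were seen. Cortical Tbr1 was at 44.9 to 50.1 CPM in frontal cortex and at most 0.615 CPM in cerebellum, and cerebellar Gabra6 at 740 to 756 CPM in Cere_Ctrl, 384 to 393 CPM in Cere_Upf3b-KO and at most 0.155 CPM in frontal cortex. Purkinje cell Pcp2 was at 371 to 396 CPM in Cere_Ctrl and 146 to 148 CPM in Cere_Upf3b-KO. The part of tissue composition in the levels of the 10 genes was not tested.

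**Figure D5:**
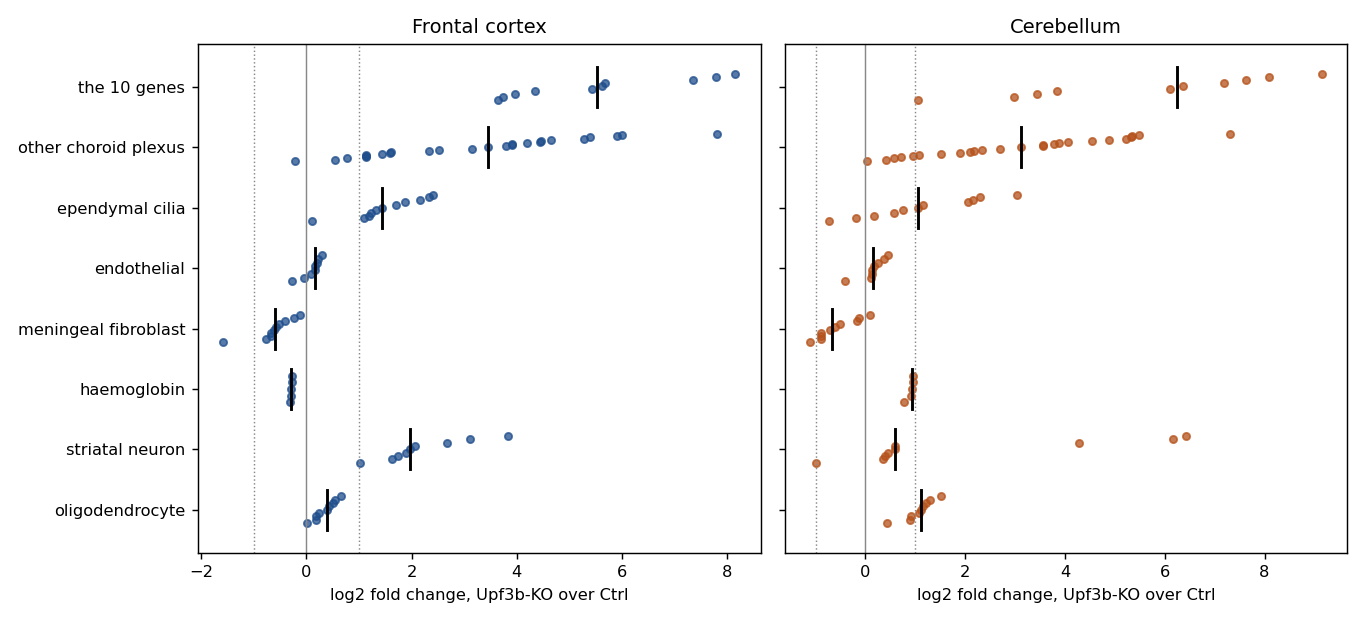
Log2 fold change of Upf3b-KO over Ctrl for each tested gene (points) of 8 marker lists in frontal cortex (left) and cerebellum (right), with the list median as a vertical bar, 0 as a solid line and 2-fold either way as dotted lines. The 10 genes have medians of 5.52 and 6.24, above the medians of the other lists, and meningeal fibroblast genes lie mostly below 0. All lists were chosen with earlier results of these data known.

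The genes whose pattern over the 15 deep libraries was most like the mean log2(CPM + 1) of the 10 were named from 15217 genes of 1 CPM or more in the mean. They were Brd2 (Pearson r = 0.998), Rpl3-ps1 (0.998), Gm6548 (0.996), Gm15772 (0.996), Abca4 (0.996), Tmem72 (0.996), Gm6969 (0.995), Aqp1 (0.995), Trpv4 (0.995) and Krt18 (0.995). Abca4, Tmem72, Aqp1, Trpv4 and Krt18 are on the list of other choroid plexus genes, while 4 are pseudogenes, which share sequence with their parent genes and whose counts are uncertain. Brd2, a bromodomain protein, rose from 169 to 357 CPM in frontal cortex, just over the 2-fold limit, and was at 167 and 326 CPM in cerebellum, under it. Since most of the variance is between genotypes, any gene with a like step in both regions ranks high, and 358 genes had r over 0.9. Among the members, each set against the mean of the other 9, r was 0.955 to 0.999 but for Clic6, at 0.72.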

How the data were processed

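Per the labels and the study's methods, RNA was extracted with a column kit, depleted of ribosomal RNA, copied with SMART-Seq v4 PLUS and sequenced in pairs. The authors aligned reads to GRCm39 with STAR 2.5.2b and deposited RSEM expected counts per transcript, 1 table a region. The RSEM version is not given in the sources used here. Of 142435 transcripts, 141102 matched GENCODE and were summed to 55266 genes (99.3% to 99.4% of counts). CPM are counts scaled to 1000000 of a library's total, 27660078 to 35238677 in 15 libraries and 64981 in Cere_Upf3b-KO replicate 1, which was left out for depth. Intervals and floors (3 counts) cover counting error only.

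Rounded expected counts were tested in edgeR 4.0.16 (R 4.3.3; quasi-likelihood test, trimmed-mean scaling, filterByExpr with a minimum count of 10), per region, and over 15 libraries for the interaction and the region comparisons. A call needs a Benjamini-Hochberg adjusted p under 0.01 and a fold over 2. The fits were also run on simulated counts. Their spread was smaller than that of the transcripts, whose biological coefficient of variation was 0.495 in frontal cortex and 0.528 in cerebellum. The transcript calls are thus not covered by this run. The alternatives were DESeq2 1.42.0, its scaling, other filters, thresholds and library sizes, unrounded counts, the shallow library, 1 joint fit, a replicate block and each library left out. Same-numbered libraries did not deviate together (correlations −0.107 to 0.119). Named are the 10 genes, their transcripts that were tested or hold at least 1% of a gene (named or counted), list genes of small adjusted p or defining role, and the 10 genes of most like pattern. The members and lists were chosen with earlier results of these data known.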

Additional observations from a re-analysis of the deposited data

Results flagged for a closer look

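The change in 6 genes differed between frontal cortex and cerebellum by the interaction test, as log2 values of cerebellum minus frontal cortex: Ttr 1.35, Kl 1.75, Folr1 1.75, Sostdc1 4.13, Clic6 −4.57 and Slc4a5 −4.32. With single libraries left out, the Folr1 value ran from 1.31 to 3.28 and lost its call in 5 of 15 fits, and that of Slc4a5 ran from −5.55 to −3.92. The Upf3b-KO levels of the same 6 genes differed between regions by at most 2.17-fold (Kl), and their Ctrl levels by 3.93-fold (Ttr) to 23.6-fold (Sostdc1).

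Cere_Upf3b-KO replicate 1, which is left out of the groups above except where its inclusion is stated, held member RNA above every Cere_Ctrl library and above 3 counts for 3 genes: Ttr at 1277 CPM, Enpp2 at 1770 CPM and Kl at 139 CPM.

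Of 30 sets of 4 libraries (10 genes in 3 groups), none had a library set apart from the other 3 by Dixon's limit at 95%, where chance marks about 1 in 20.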

How the results depend on the processing

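All 10 genes were called higher in both regions under every alternative run and with each library left out. The interaction called 5 to 6 of the 10 with each library left out and 6 to 9 under the other alternatives, and the Ctrl region comparison 7 with each library left out and 7 to 8 otherwise. The Upf3b-KO region comparison called 2 genes, and 9 with an adjusted p under 0.05 and no fold limit, 2 with each library left out. In frontal cortex 17 transcripts were called, 11 with the replicate block, and 14 to 16 with a library left out; in cerebellum 15, 11 with the block or with the shallow library, and 13 to 15 with a library left out. The block rests on a number and not on a known pairing, and it changed no gene call. Of the members' refitted log2 values, 1063 stayed on the same side of the thresholds. Among these, some values that were not called in either fit changed sign, as for Kcne2 (interaction) and Kcnj13 (Ctrl region comparison). Another 11 passed when the adjusted p limit was loosened to 0.05 and the fold limit dropped. The last 5 (Folr1, interaction, adjusted p 0.0117 to 0.0246 by edgeR) missed the threshold. Folr1, Kcne2, Sostdc1 and Slc4a5 have 10 to 19 counts in all in a Ctrl group, which limits the size of their fold changes.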
